A study of Mus musculus with 18 samples.

Results

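The genes described here drive 2 linked parts of the cell division cycle, the copying of DNA in S phase and the separation of the copied chromosomes in mitosis. They were taken by name from a list of 54 mouse genes. Of these, 48 were among the 10897 genes of the expression table. The mitosis list gave 24 of 27 genes (Tpx2, Cenpe and Cenpf were not analysed here), and the replication list gave 20 of 22 (Pola1 and Pole were not). Of 5 further S-phase genes outside both lists, Cdt1, Tk1, Uhrf1 and Dut were measured and Cdc6 was not. Every gene of the table had an FPKM (fragments per kilobase of transcript, scaled by depth) of at least 1 in at least 15 of 18 libraries, so the 48 are the members expressed throughout the colorectum samples.

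Colorectal tissue of male C57BL/6J mice aged 10 weeks was sequenced as ribosome-depleted total RNA, with 6 libraries in each of the groups Control, GF-AOM and GF-AOMS. The compound azoxymethane (AOM) is a carcinogen that induces colorectal cancer (CRC) in rodents, GF means germ-free, and S marks exposure to cigarette smoke. By the sample characteristics, Control mice were wild-type, specific pathogen-free (SPF) and carried AOM-induced CRC, GF-AOM mice were germ-free with AOM-induced CRC, and GF-AOMS mice also received smoke, so that AOM is common to all groups. The treatment protocol in the same labels instead calls Control a normal group, and the growth protocol puts all mice in an SPF facility, so a difference from Control cannot be assigned to the microbiota or to AOM. GF-AOMS and GF-AOM differed by smoke under either wording. The labels count 6 mice a group and do not state that no mouse gave more than 1 library, so tests below rest on the variation among libraries, which may be partly technical. Whether a piece of tissue held tumour is not stated.

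Replication starts where the Mcm2 to Mcm7 helicase ring has been loaded on DNA by factors that include Cdt1. Cdc45 and the GINS complex turn the ring into an active helicase, Rpa covers the single strands, the Rfc clamp loader places the Pcna ring, and polymerases such as Pold1 extend the new strands with nucleotides made by Rrm1, Rrm2, Tyms, Tk1 and Dut. Mitosis genes are switched on later, in G2, under factors that include Foxm1, and serve the cyclin B and Cdk1 kinase, the Aurora and Polo kinases, the spindle checkpoint, the kinesins and the anaphase-promoting complex. In the colon, dividing cells lie mainly in the lower crypt, and immune cells can also divide there.

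Libraries held 48.95 M to 79.23 M counts (M for mega), and levels below are CPM (counts per M) after TMM scaling, which corrects for RNA composition, unless FPKM is named. The TMM factor was under 0.9 in 5 libraries (Control replicate 2, GF-AOM replicates 3 and 6, GF-AOMS replicates 1 and 2), and ribosomal protein genes took 15.7% to 26.6% of the counts in those 5, against 5.32% to 16.3% in the other 13. Markers of position along the colon split the Control group. The summed CPM of Hoxa13 and Hoxb13, which mark the distal colon, was 164 and 369 in Control replicates 1 and 2 and 2.65 to 5.63 in Control replicates 3 to 6, while the 12 other libraries lay between 44.6 and 330. Epithelial markers were present in all libraries, at a summed 5760 to 12300 CPM over 8 of 8 genes.

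Compared per length of transcript, the most abundant member was Pcna, the sliding clamp, at 45.3 ± 7.53 FPKM (mean ± SD over 18 libraries). It was followed by mitosis genes, namely Ccnb2 (a B-type cyclin) at 23.8 ± 9.37 FPKM, Ube2c (a ubiquitin-conjugating enzyme of the anaphase-promoting complex) at 20.6 ± 8.27, Cdc20 (its activator) at 20.5 ± 8.70, Plk1 (the Polo kinase) at 19.3 ± 8.44 and Ccna2 (cyclin A2) at 18.5 ± 8.22. These 5 mitosis genes lay within 1 SD of each other, and Pcna stood above all of them. At the other end lay the kinesin gene Kif23 at 2.17 ± 1.00 FPKM, the checkpoint kinase gene Bub1 at 2.24 ± 0.818, Foxm1 at 2.56 ± 1.46 and Cdc45 at 2.63 ± 0.923. These 4 did not differ beyond their spread. FPKM depends on the length assigned to a gene, and by mean count Kif23 (1097) stood above Foxm1 (928), Bub1 (625) and Cdc45 (589).

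The 6 helicase subunits form a ring with 1 copy of each, and their transcripts were close but not equal. Mcm6 was highest at 13.0 ± 4.11 FPKM, then Mcm5 at 11.0 ± 3.84, Mcm7 at 9.76 ± 2.87, Mcm3 at 8.61 ± 2.63 and Mcm4 at 7.75 ± 2.43, with Mcm2 lowest at 4.91 ± 1.45. Neighbours in this order overlapped within 1 SD. The order rests on the lengths behind FPKM. The length implied by counts and FPKM was 8.02 kb for Mcm2 and 4.14 to 5.38 kb for the other subunits. By mean count Mcm2 (2180) stood above Mcm3 (2055) and Mcm4 (1769). Of the clamp loader, Rfc4 stood at 11.9 ± 2.12 FPKM, Rfc5 at 9.14 ± 1.27, Rfc2 at 8.95 ± 1.22 and Rfc3 at 4.85 ± 1.07, so that Rfc3 lay below the other 3 by more than 1 SD. Exons of Rfc2, Rfc4 and Rfc5 share 10.7% to 15.1% of their bases with a gene on the opposite strand, as do those of Ccna2 (12.5%), Prc1 (11.1%), Ube2c (22.8%), Kif20a (29.3%) and Gins2 (67.3%). Whether the counting used strand is not given in the sources used here, so the levels of these 8 genes are uncertain.

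Promoters of the 2 lists differed in their sequence, a feature that took no part in the choice of members. A RefSeq promoter of build GRCm38.p6, from 250 bases before the start site to 50 after it, was matched by symbol for 40 of the 48 members, and 33 of these starts lay within 100 bases of the start in the table. Both strands were searched for the cell cycle homology region (CHR, letters TTTGAA or TTCGAA), bound by the complex that holds mitosis genes back until G2, for CCAAT, bound by NF-Y, and for the E2F core (as TTGGCGC, or in the form TTCCCGC, the form TTGCCGC or also the form TTCGCGC). A CHR match was present in 16 of 20 mitosis promoters (80.0%), 4 of 16 replication promoters (25.0%) and 0 of 4 other S-phase promoters, against 13.5% of 7667 promoters of genes in the table and 19.2% of all 32851 RefSeq promoters. CHR and CCAAT stood together in the same 80.0% of mitosis promoters, against 5.53% of promoters of genes in the table and 7.52% of all RefSeq promoters. The E2F core showed the other order, with 10 of 16 replication promoters (62.5%), 3 of 20 mitosis promoters (15.0%), 2 of 4 other S-phase promoters, 17.3% of promoters of genes in the table and 9.57% of all RefSeq promoters. CCAAT, with or without CHR, was found in 17 of 20 mitosis and 12 of 16 replication promoters, against 38.5% and 37.4%. A match is a run of letters, and binding was not measured.

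Mitosis promoters are shown first and then replication promoters, to let these letters be read in place. Each is 280 bases, 250 before the start site and 30 after it, 5′ to 3′ on the gene's strand, in lower case with CHR, CCAAT and E2F matches on either strand in capitals. Kif23, Cdca8, Pold1 and Rfc3 are among the members with the smallest p in a comparison below. Mki67, Top2a and Mcm7 were added after the motif counts were seen. Pcna and Rrm2, also followed in every comparison below, are not shown and held fewer matches than Mki67, Top2a and Mcm7. Pcna had 1 CCAAT match only, and Rrm2 had 1 E2F and 1 CCAAT match.
Kif23 (chr9:61946770-61947049, minus strand): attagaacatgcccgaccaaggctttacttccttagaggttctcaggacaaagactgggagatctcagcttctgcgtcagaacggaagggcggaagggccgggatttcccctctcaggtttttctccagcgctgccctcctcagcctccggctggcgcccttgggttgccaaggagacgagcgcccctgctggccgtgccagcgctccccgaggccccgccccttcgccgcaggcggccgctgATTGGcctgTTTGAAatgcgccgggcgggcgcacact
Cdca8 (chr4:124936888-124937167, minus strand): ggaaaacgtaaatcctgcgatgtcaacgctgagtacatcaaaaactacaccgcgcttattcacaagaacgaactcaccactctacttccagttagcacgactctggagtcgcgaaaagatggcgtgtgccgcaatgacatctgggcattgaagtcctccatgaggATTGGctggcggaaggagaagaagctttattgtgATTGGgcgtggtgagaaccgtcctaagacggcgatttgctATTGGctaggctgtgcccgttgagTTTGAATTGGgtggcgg
Mki67 (chr7:135716350-135716629, minus strand): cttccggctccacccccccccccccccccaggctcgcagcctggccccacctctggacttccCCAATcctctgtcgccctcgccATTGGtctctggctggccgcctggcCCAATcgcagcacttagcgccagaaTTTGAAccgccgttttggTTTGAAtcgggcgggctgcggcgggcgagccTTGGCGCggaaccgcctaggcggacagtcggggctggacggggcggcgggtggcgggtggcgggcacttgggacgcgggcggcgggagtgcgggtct
Top2a (chr11:99024160-99024439, minus strand): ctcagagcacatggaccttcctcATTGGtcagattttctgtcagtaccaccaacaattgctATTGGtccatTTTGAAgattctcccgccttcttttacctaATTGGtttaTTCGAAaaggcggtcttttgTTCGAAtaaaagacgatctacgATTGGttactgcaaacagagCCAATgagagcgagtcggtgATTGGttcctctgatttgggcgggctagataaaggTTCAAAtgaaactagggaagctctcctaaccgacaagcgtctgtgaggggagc
Rfc3 (chr5:151651179-151651458, minus strand): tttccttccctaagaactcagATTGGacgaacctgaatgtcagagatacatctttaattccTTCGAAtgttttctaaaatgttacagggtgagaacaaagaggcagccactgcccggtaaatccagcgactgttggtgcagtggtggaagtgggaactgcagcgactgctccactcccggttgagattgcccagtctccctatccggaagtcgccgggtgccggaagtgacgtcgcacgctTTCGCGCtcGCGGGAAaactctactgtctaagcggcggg
Mcm7 (chr5:138171854-138172133, minus strand): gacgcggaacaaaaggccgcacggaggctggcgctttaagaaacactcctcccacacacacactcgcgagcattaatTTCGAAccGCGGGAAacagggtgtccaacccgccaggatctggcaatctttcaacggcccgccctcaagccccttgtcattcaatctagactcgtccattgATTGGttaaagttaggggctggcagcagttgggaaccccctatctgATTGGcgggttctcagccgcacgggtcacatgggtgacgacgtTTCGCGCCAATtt
Pold1 (chr7:44548786-44549065, minus strand): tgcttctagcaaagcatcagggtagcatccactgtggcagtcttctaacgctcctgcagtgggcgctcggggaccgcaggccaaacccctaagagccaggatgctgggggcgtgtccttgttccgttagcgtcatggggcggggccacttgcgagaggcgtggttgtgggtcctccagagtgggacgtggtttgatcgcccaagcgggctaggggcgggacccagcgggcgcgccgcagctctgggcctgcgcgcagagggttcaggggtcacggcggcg
In Kif23, a single CCAAT match (as ATTGG) and a single CHR (TTTGAA) lie at the start site. Top2a carries 4 CHR and 6 CCAAT matches, the highest CCAAT number of any member matched other than Ube2c, which also has 6. In Rfc3, 2 E2F matches flank the start site. The CHR and a CCAAT match overlap in Cdca8, and 2 E2F matches and a CCAAT match overlap in Mcm7. Pold1 shows no capitals, since its only E2F match lies in the last bases of the searched window, past those printed. The RefSeq starts of Cdca8 and Mcm7 lie 2394 and 539 bases from the starts in the table, and the others shown lie within 100 bases.

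Mitosis genes varied among libraries of the same group more than replication genes did. The SD of log2 CPM within groups had a median of 0.48 over the mitosis members (0.23 for Bub3, which binds kinetochores, to 0.66 for Foxm1), 0.30 over the replication members (0.15 for Pcna to 0.39 for Rrm2) and 0.31 over all genes of the table. From the lowest to the highest of the 18 libraries, Foxm1 spanned 4.64-fold, the kinesin gene Kif20a 4.34-fold and the proliferation marker Mki67 3.78-fold, while Bub3 spanned 1.70-fold, Pcna 1.46-fold and the single-strand binding gene Rpa1 1.43-fold. These are descriptions of the libraries, with no test.

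**Figure D1:**
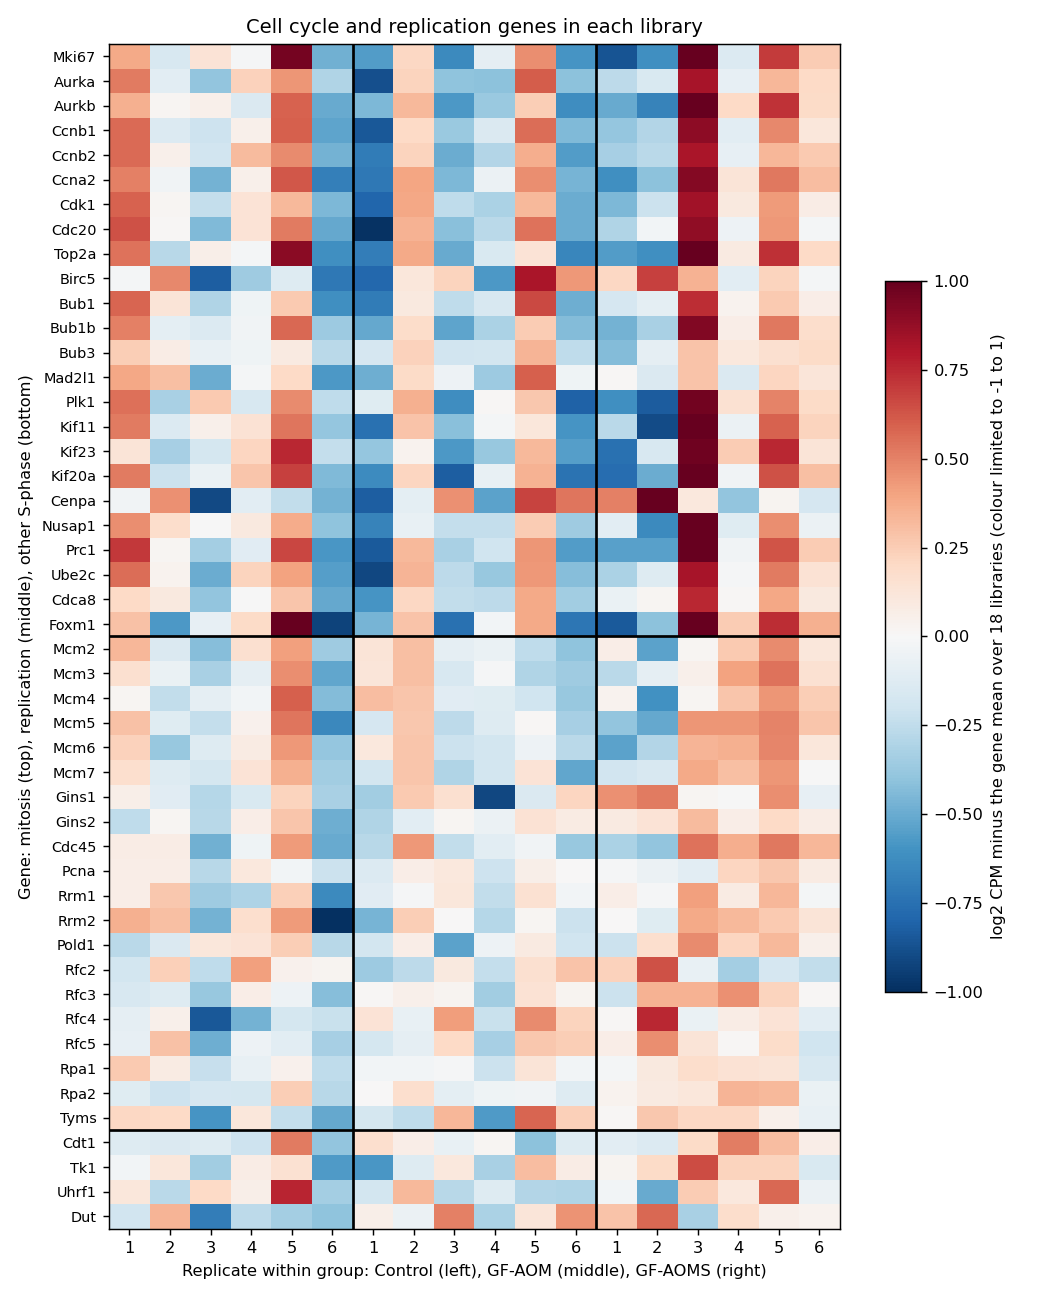
Log2 CPM of each of the 48 genes in each library, minus the mean of that gene over the 18 libraries. Rows are genes by role, columns are libraries by group, red is above and blue below the mean, and colours stop at 1 log2 unit. Most mitosis genes share their colour within a library, with GF-AOMS replicate 3 red and GF-AOM replicate 1 blue.

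Within a library most mitosis genes moved together. The median deviation of the 24 mitosis genes from their means was 0.51, 0.01, -0.20, 0.02, 0.50 and -0.49 log2 in Control replicates 1 to 6. It was -0.70, 0.22, -0.41, -0.25, 0.38 and -0.50 in the GF-AOM libraries, and -0.41, -0.28, 0.91, -0.03, 0.49 and 0.18 in the GF-AOMS libraries. Each group thus held libraries with high and with low mitosis genes, and the 3 ranges overlapped widely. GF-AOMS replicate 3 was the highest of all 18 libraries for 20 of 24 mitosis genes, and GF-AOM replicate 1 was the lowest for 12 of 24. All 24 lay above their own median in GF-AOM replicate 5 and in GF-AOMS replicates 3 and 5, and none did in Control replicate 6 or GF-AOM replicates 1 and 4. Of all genes in the table, 47.6% to 53.6% lay above their own median in a library. Birc5 and Cenpa parted from the other mitosis genes in some libraries. They deviated by 0.68 and 1.03 log2 in GF-AOMS replicate 2 (list median -0.28), and by 0.44 and 0.53 in GF-AOM replicate 6 (-0.50).

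Replication genes spanned smaller steps and did not follow the mitosis genes in every library. Their median deviation ran from -0.37 to 0.25 log2 in Control, from -0.20 to 0.11 in GF-AOM and from 0.01 to 0.32 in GF-AOMS. No GF-AOMS library had a median below 0, but the ranges overlapped in all 3 groups. Control replicate 6 was the lowest of 18 libraries for 9 of 20 replication genes. The lists parted most in GF-AOMS replicate 3, where the mitosis median lay 0.72 log2 above the replication median, and in GF-AOM replicate 1, where it lay 0.55 below (-0.55). In libraries with low mitosis genes the replication median could lie near 0, at -0.00 in GF-AOM replicate 3 (mitosis -0.41), 0.01 in GF-AOMS replicate 1 (-0.41) and 0.04 in GF-AOMS replicate 2 (-0.28). These libraries are among the 5 with a TMM factor under 0.9, and such a median can hide a split. In GF-AOMS replicate 2, 10 of 20 replication genes were above their own median. The Mcm genes there lay at -0.60 (Mcm4) to -0.09 (Mcm3), and Rfc4 lay at 0.75, Rfc2 at 0.64 and Gins1 at 0.52. In GF-AOMS replicate 4 the replication median was 0.24 and the mitosis median -0.03. Control replicates 1 and 2, the Control libraries with Hoxa13 and Hoxb13, had mitosis medians of 0.51 and 0.01, inside the range of the other 4 for replicate 2 and just above it for replicate 1.

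**Figure D2:**
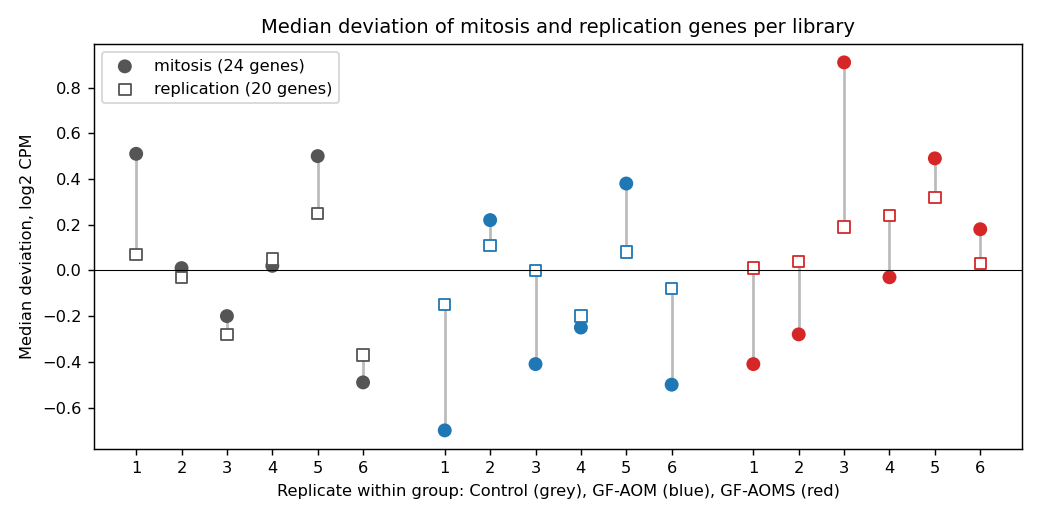
Median deviation of log2 CPM from the gene means in each library, over 24 mitosis genes (filled circles) and 20 replication genes (open squares), with a grey line joining the values of a library. Mitosis medians span -0.70 to 0.91 and replication medians -0.37 to 0.32, and groups overlap.

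Cell type markers were read in the same libraries, and their part in the pattern was not tested. GF-AOMS replicate 3 had the highest summed plasma cell markers (24400 CPM over 6 of 6 genes, against 2560 to 23700 in the other 17 libraries), and its epithelial sum of 9130 CPM was the highest of the 12 GF-AOM and GF-AOMS libraries. Plasma cell sums differed among the other libraries with high mitosis genes. They were 8120 CPM in GF-AOMS replicate 5 and 6880 CPM in Control replicate 5. They were 14500 CPM in Control replicate 1, 14500 CPM in GF-AOM replicate 5 and 23700 CPM in GF-AOM replicate 2. GF-AOM replicate 1 had the lowest epithelial sum of all 18, at 5760 CPM. The summed level of 8 of 12 crypt progenitor markers was highest in Control replicate 5 at 458 CPM, a library with high mitosis genes, and lowest in GF-AOMS replicate 2 at 187 CPM, a library with low ones. Other libraries went the other way, with 407 CPM in Control replicate 3 (mitosis median -0.20) and 282 CPM in GF-AOM replicate 5, where all mitosis genes were above their median. Of the germinal centre B cell markers, only Rgs13 of 6 listed was in the table, at 5.36 to 19.1 CPM. Its highest value was in GF-AOM replicate 3 and its lowest in Control replicate 5, where the mitosis medians were -0.41 and 0.50. In tissue RNA, fewer dividing cells and less of a transcript per cell cannot be told apart.

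In smoke-exposed germ-free mice against unexposed ones (GF-AOMS against GF-AOM), no member passed the test. The direction of the members was nearly uniform all the same: 24 of 24 mitosis genes, 19 of 20 replication genes and 4 of 4 other S-phase genes had a log2 difference above 0, as did 53.6% of all genes. The median log2 difference was 0.34 over the mitosis genes, 0.17 over the replication genes and 0.21 over the other S-phase genes, against 0.01 over all genes. Library means over a list had a replicate SD of 0.43, 0.13 and 0.12 log2, so the mitosis median was smaller than the spread between replicates, and the other 2 were larger. Here and below, this SD describes single libraries. It is not the error of a difference between groups, and setting a median beside it is no test. Since many members of a list move together within a library, their shared direction is not that of independent genes. By edgeR's quasi-likelihood test with Benjamini-Hochberg adjustment over all genes, 0 of 48 members were called at adjusted p under 0.05, and 0.0% of all genes were. At an unadjusted p under 0.05 stood 1 member (2.08%), which was higher, and 1.09% of all genes (0.633% higher). The groups were apart without overlap for 0 members and 0.0642% of all genes, and DESeq2 and limma on log2(FPKM + 1) also called 0 members. Leaving out GF-AOMS replicate 3 took the mitosis median from 0.34 to 0.15.

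The member under that unadjusted limit was Pold1, the catalytic subunit of DNA polymerase delta (ENSMUSG00000038644, chr7:44532746-44548847). Its level was 14.5, 17.2, 11.4, 15.9, 17.5 and 14.3 CPM in GF-AOM and 14.1, 18.4, 22.8, 19.0, 20.6 and 17.0 CPM in GF-AOMS. Smoke-exposed libraries were higher in most cases, 5 of 6 lay above the GF-AOM mean, and the groups overlapped. The log2 difference was 0.30 (SE 0.14), with adjusted p = 1 by edgeR.

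Kif23, a kinesin of the central spindle (ENSMUSG00000032254, chr9:61915905-61946774), had the smallest p of the mitosis genes. It lay at 13.8, 18.5, 12.1, 13.9, 22.6 and 12.3 CPM in GF-AOM and at 10.8, 16.1, 35.5, 21.5, 30.5 and 19.7 CPM in GF-AOMS. The lowest and the highest value were both in the smoke-exposed group. The log2 difference was 0.53 (SE 0.26), with adjusted p = 1 by edgeR. Aurkb, the Aurora B kinase of the chromosomal passenger complex (ENSMUSG00000020897, chr11:69045647-69051664), had lowest, median and highest values of 14.3, 16.6 and 27.6 CPM in GF-AOM and 13.9, 25.3 and 49.3 CPM in GF-AOMS, a log2 difference of 0.51 (SE 0.28, edgeR adjusted p = 1). Cdca8, which encodes another subunit of that complex (ENSMUSG00000028873, chr4:124918465-124939311), ran from 18.2 through 22.9 to 35.7 CPM in GF-AOM and from 26.2 through 28.6 to 46.2 CPM in GF-AOMS. All 6 smoke-exposed libraries lay above the GF-AOM mean for Cdca8, although the ranges overlapped, and the log2 difference was 0.34 (SE 0.19, edgeR adjusted p = 1).

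Among the replication genes, Rfc3 of the clamp loader (ENSMUSG00000033970, chr5:151642756-151651242) had lowest, median and highest values of 15.6, 20.2 and 21.9 CPM in GF-AOM and 17.1, 24.1 and 27.2 CPM in GF-AOMS. The groups overlapped, and the log2 difference was 0.22 (SE 0.12, edgeR adjusted p = 1). Gins1, a subunit of GINS (ENSMUSG00000027454, chr2:150905400-150931280), lay at 3.40, 6.48 and 7.71 CPM in GF-AOM and at 6.07, 7.66 and 9.21 CPM in GF-AOMS, a log2 difference of 0.33 (SE 0.19, edgeR adjusted p = 1). The highest GF-AOM library exceeded the median of the smoke-exposed ones. Rfc4 was the replication gene with a difference below 0, at -0.02. The largest difference of any member was that of Foxm1, at 0.54, and the smallest among mitosis genes was that of Mad2l1, a checkpoint protein gene, at 0.04.

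Of the 6 genes followed in every comparison, the mitosis genes had wider ranges in GF-AOMS than in GF-AOM. Control ranges were 54.8 to 149 CPM for Mki67, 52.2 to 149 CPM for Top2a and 15.6 to 33.2 CPM for Aurkb. Mki67 (ENSMUSG00000031004, chr7:135689784-135716361) was at 52.0, 88.2, 49.3, 71.7, 106 and 50.8 CPM in GF-AOM and at 42.0, 50.1, 158, 69.5, 124 and 91.4 CPM in GF-AOMS, with a log2 difference of 0.36 (SE 0.31). Both the lowest and the highest of the 18 Mki67 values came from smoke-exposed libraries, and 3 of 6 lay above the GF-AOM mean. Top2a, the DNA topoisomerase that untangles sister chromosomes (ENSMUSG00000020914, chr11:98992943-99024189), was at 49.5, 104, 56.5, 72.0, 88.1 and 50.8 CPM in GF-AOM and at 54.2, 52.4, 165, 85.2, 133 and 92.1 CPM in GF-AOMS, with a log2 difference of 0.47 (SE 0.30). Replicates 3 and 5 were the high libraries for both genes.

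The replication genes of this set had narrower ranges. Pcna (ENSMUSG00000027342, chr2:132249162-132253314) had lowest, median and highest values of 107, 126 and 133 CPM in GF-AOM and 115, 127 and 149 CPM in GF-AOMS, and its log2 difference was 0.09 (SE 0.10). Mcm7 (ENSMUSG00000029730, chr5:138164583-138172422) lay at 33.3, 42.0 and 57.9 CPM and at 41.7, 53.2 and 65.0 CPM, with a log2 difference of 0.25 (SE 0.16). Rrm2, the small subunit of ribonucleotide reductase (ENSMUSG00000020649, chr12:24708241-24714146), lay at 21.0, 27.0 and 34.4 CPM and at 26.6, 33.2 and 37.6 CPM, with a log2 difference of 0.27 (SE 0.20). The groups overlapped for all 3 genes, and adjusted p was 1.

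**Figure D3:**
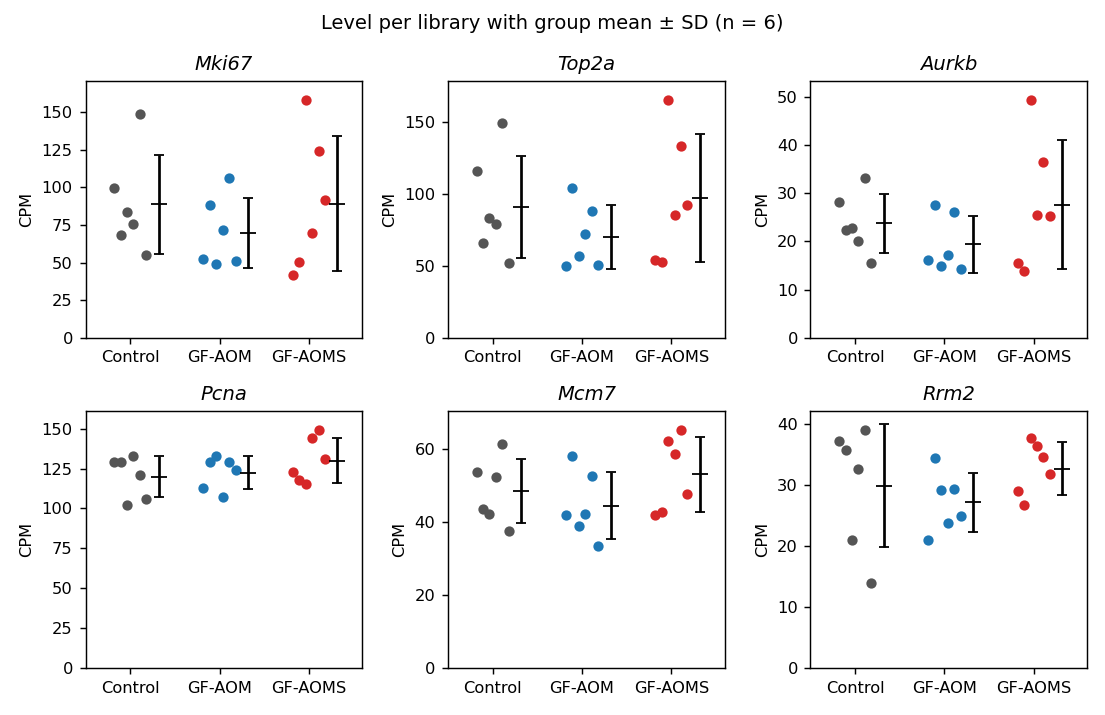
CPM of Mki67, Top2a, Aurkb, Pcna, Mcm7 and Rrm2 in each library (points, axes from 0), with the group mean and SD in black (n = 6). In GF-AOMS, Mki67 runs from 42.0 to 158 CPM and Pcna from 115 to 149 CPM, and for each gene the 3 groups overlap.

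In GF-AOM against Control the mitosis genes lay mostly lower and the replication genes near 0. A log2 difference below 0 was found for 21 of 24 mitosis genes, with a median of -0.24 and a range from -0.39 (Kif20a) to 0.33 (Birc5). The replication median was -0.02, with 9 of 20 genes above 0, and the other S-phase median was 0.01. Of all genes 49.5% were above 0, with a median of -0.00. The mitosis median was smaller than the replicate SD of 0.39 log2. By edgeR, 0 of 48 members were called at adjusted p under 0.05, against 0.00918% of all genes. Unadjusted p was under 0.05 for 2 members (4.17%), both higher, against 15.7% of all genes (5.98% higher and 9.74% lower). The groups were apart without overlap for 0 members and 0.762% of all genes, and DESeq2 and limma called 0 members. Without Control replicate 5 the number of replication genes above 0 was 16 of 20, and without Control replicate 6 it was 5 of 20, so their direction rested on those libraries.

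The 2 members under the unadjusted limit were Rfc4 and Dut, both higher in GF-AOM. With a colon position term 0 members were under it, and 459 of all genes were, in place of 1713. Rfc4 (ENSMUSG00000022881, chr16:23113943-23127737) lay at 19.4, 21.4, 11.5, 14.8, 18.3 and 17.6 CPM in Control and at 22.7, 19.6, 27.6, 17.7, 28.7 and 24.1 CPM in GF-AOM. Each GF-AOM library was above the Control mean, and the groups overlapped. The log2 difference was 0.45 (SE 0.17), with adjusted p = 0.255 by edgeR, and its exon overlap with Eif4a2 applies here. Dut, which keeps uracil out of DNA, had a log2 difference of 0.38 (edgeR adjusted p = 0.315). Rfc3 and Rfc5, the replication genes with the next smallest p, stood at 0.16 (SE 0.12, edgeR adjusted p = 0.473) and 0.15 (SE 0.14, edgeR adjusted p = 0.56).

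Birc5, or survivin, another subunit of the chromosomal passenger complex (ENSMUSG00000017716, chr11:117849251-117855743), went against most other mitosis genes. Its lowest, median and highest values were 28.8, 43.2 and 71.0 CPM in Control and 29.6, 57.3 and 89.9 CPM in GF-AOM, with a log2 difference of 0.33 (SE 0.26, edgeR adjusted p = 0.468). Ccnb2 (ENSMUSG00000032218, chr9:70407692-70421547) lay at 28.0, 44.3 and 57.5 CPM in Control and 23.9, 29.6 and 50.2 CPM in GF-AOM, with a log2 difference of -0.35 (SE 0.23, edgeR adjusted p = 0.415). The groups overlapped for both genes. The spindle gene Nusap1 stood at -0.34 (SE 0.24, edgeR adjusted p = 0.433), and Cenpa, the centromere histone, was with Birc5 and Mad2l1 (0.01) above 0, at 0.30.

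Mki67 had lowest, median and highest values of 54.8, 79.8 and 149 CPM in Control, against 49.3, 61.9 and 106 CPM in GF-AOM, a log2 difference of -0.35 (SE 0.31, edgeR adjusted p = 0.535). Top2a went from 52.2, 81.1 and 149 CPM to 49.5, 64.2 and 104 CPM, a log2 difference of -0.37 (SE 0.30, edgeR adjusted p = 0.49). Aurkb went from 15.6, 22.6 and 33.2 CPM to 14.3, 16.6 and 27.6 CPM, a log2 difference of -0.29 (SE 0.28, edgeR adjusted p = 0.557). For these 3 the medians were lower in GF-AOM, and the ranges overlapped over most of their length. Pcna had nearly the same range in both groups (102, 125 and 133 CPM in Control), with a log2 difference of 0.03 (SE 0.10, edgeR adjusted p = 0.888), which was below 0 with no composition factor (-0.06). Mcm7 (37.5, 47.9 and 61.2 CPM in Control) stood at -0.12 (SE 0.16, edgeR adjusted p = 0.659). Rrm2 (13.9, 34.1 and 38.9 CPM in Control) stood at -0.14 (SE 0.20, edgeR adjusted p = 0.707).

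In GF-AOMS against Control the replication genes held the smallest p-values, and again none passed. Replication genes had a median log2 difference of 0.19, with 19 of 20 above 0, and the mitosis genes 0.10, with 24 of 24 above 0. The other S-phase median was 0.25, and all genes had a median of 0.01 with 51.0% above 0. Replicate SDs were 0.42 log2 for the mitosis mean, 0.20 for the replication mean and 0.19 for the other S-phase mean, so the first 2 medians were inside the spread. By edgeR, 0 of 48 members were called at adjusted p under 0.05, while 0.734% of all genes were called (0.11% higher and 0.624% lower). Unadjusted p was under 0.05 for 4 members (8.33%), all higher, against 16.2% of all genes in either direction (6.93% higher and 9.25% lower). No member and 0.798% of all genes had groups apart without overlap. DESeq2 and limma called 0 members. The mitosis count rested on few libraries, since 6 of 24 genes were above 0 without GF-AOMS replicate 3 (median -0.08) and 13 of 24 without Control replicate 6. It was 16 of 24 with a colon position term, and 18 and 15 of 24 by limma with a pseudocount of 1 and 0.1.

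The 4 members were Rfc3, Rfc4, Rpa2 and Dut. Rfc3 had a log2 difference of 0.38 (SE 0.12) with adjusted p = 0.165 by edgeR, the smallest of any member in any of the comparisons. Rfc4 stood at 0.43 (SE 0.17, edgeR adjusted p = 0.248), with values of 20.8, 34.8, 19.7, 21.8, 22.7 and 19.2 CPM in GF-AOMS, each above the Control mean. Its high value in replicate 2 came from the library with the lowest TMM factor of all (0.721). Rpa2, a subunit of the single-strand binding complex (ENSMUSG00000028884, chr4:132768332-132778752), had lowest, median and highest values of 19.5, 21.0 and 28.1 CPM in Control and 22.6, 25.4 and 30.0 CPM in GF-AOMS, a log2 difference of 0.26 (SE 0.10, edgeR adjusted p = 0.25). Each GF-AOMS library was above the Control mean of Rpa2, and the highest Control library was above the GF-AOMS median.

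Among mitosis genes the smallest p were those of Birc5 at 0.44 (SE 0.26, edgeR adjusted p = 0.389), Cenpa at 0.42 (SE 0.29, edgeR adjusted p = 0.455) and Cdca8 at 0.26 (SE 0.19, edgeR adjusted p = 0.484). Mki67 differed by 0.01 (SE 0.31, edgeR adjusted p = 0.985), with 3 of 6 GF-AOMS libraries above the Control mean, and stood below 0 by limma (-0.10) and with the replicate block (-0.02). Top2a stood at 0.09, Aurkb at 0.22, Pcna at 0.11, Mcm7 at 0.13 and Rrm2 at 0.13 log2, and the groups overlapped for each. The comparisons of GF-AOMS with GF-AOM and with Control share the GF-AOMS libraries, and those against Control share the Control libraries, so they are not independent of each other.

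**Figure D4:**
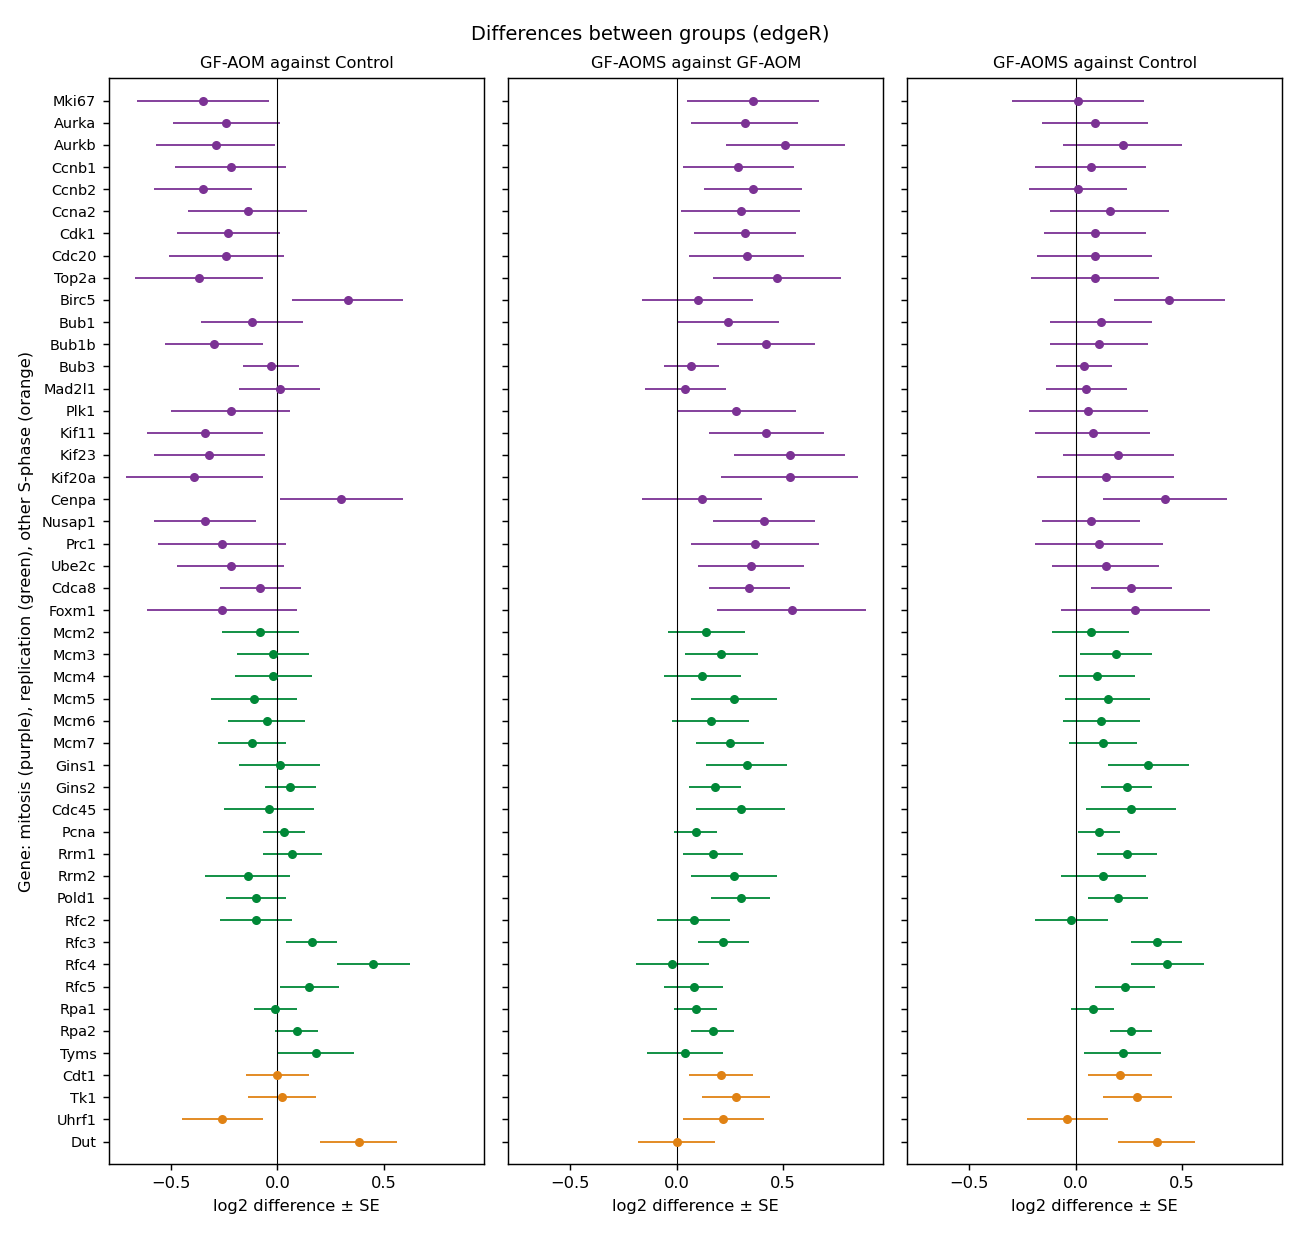
Log2 difference with its SE by edgeR for each of the 48 genes in the 3 comparisons, with mitosis genes in purple, replication genes in green and other S-phase genes in orange. In GF-AOMS against GF-AOM 47 of 48 points lie above 0, and in no comparison did any of the 48 pass adjusted p under 0.05.

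Levels in the 5 libraries with a TMM factor under 0.9, which come from all 3 groups, are given because many genes of the table differed there. Between these 5 and the other 13 libraries 16.9% of all genes did not overlap, against 2 of 48 members (4.17%), so a member without overlap there is nothing unusual in this table. Birc5, Cenpa, Rfc2, Rfc4, Rfc5 and Dut (12.5% of the members) were above their own median in 5 of 5, against 24.0% of all genes. In 0 of 5 were 17 members (35.4%), 13 mitosis genes and the helicase genes Mcm3, Mcm5, Mcm6 and Mcm7, against 26.5% of all genes. The members without overlap were Dut, at 57.1 to 69.9 CPM in the 5 libraries and 29.0 to 53.0 CPM in the other 13. The other was Plk1, which lay the other way, at 24.8 to 35.3 CPM against 37.1 to 86.2 CPM. Cenpa was at 79.8 to 119 CPM against a median of 51.7 CPM (31.1 to 93.1). Rfc4, Dut, Birc5 and Cenpa are also the 4 members with the largest differences above 0 in GF-AOM against Control. GF-AOM and GF-AOMS each hold 2 of the 5 libraries while Control holds 1. The part of RNA composition in those differences was not tested. Without the 5 libraries the mitosis median in GF-AOMS against GF-AOM was 0.41, in GF-AOM against Control -0.13 and in GF-AOMS against Control 0.30.

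**Figure D5:**
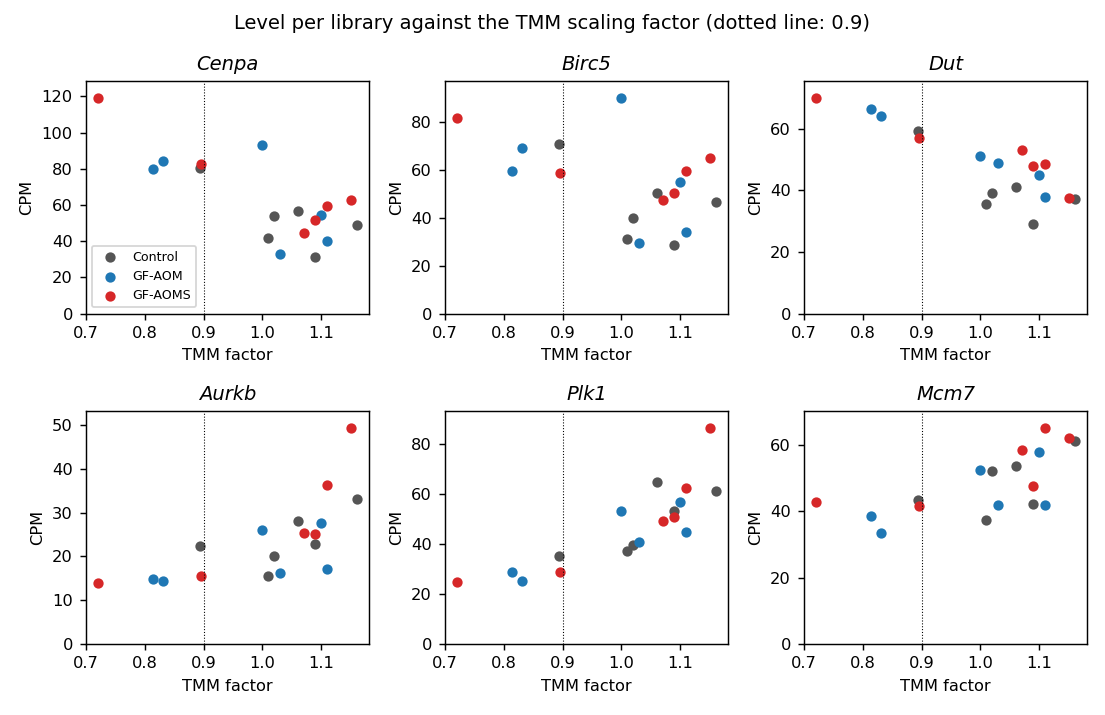
CPM of Cenpa, Birc5, Dut, Aurkb, Plk1 and Mcm7 in each library (axis from 0) against the library's TMM factor, coloured by group, with a dotted line at 0.9. Left of the line Dut lies at 57.1 to 69.9 CPM, above all other libraries, and Plk1 at 24.8 to 35.3 CPM, below all others.

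Wider cell cycle lists, chosen for their roles, held 124 measured genes of 155 listed. In GF-AOMS against GF-AOM, 29 of 30 further kinetochore, spindle and cytokinesis genes (median 0.21 log2), 17 of 18 cohesin and condensin genes (0.10), 24 of 32 further replication genes (0.10), 10 of 16 genes of the anaphase-promoting complex (0.04) and 6 of 7 G1 cyclins and kinases (0.09) were above 0. So were 10 of 15 pocket proteins and E2F factors (0.14) and 3 of 6 inhibitors of cyclin-dependent kinases (-0.00), which makes 99 of 124, and 0 of the 124 were called by edgeR. Unadjusted p was under 0.05 for 3 of them (2.42%, against 1.09% of all genes), all higher with smoke. These were Myc, a driver of growth and G1 entry, at 20.8, 28.5 and 36.6 CPM in GF-AOM and 29.9, 35.9 and 57.8 CPM in GF-AOMS (0.45 log2, SE 0.16, edgeR adjusted p = 1), the kinetochore gene Dsn1 (0.47, SE 0.21, edgeR adjusted p = 1) and the chromatin assembly gene Chaf1b (0.39, SE 0.18, edgeR adjusted p = 1). For Myc all 6 smoke-exposed libraries were above the GF-AOM mean, and the ranges overlapped.

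Against Control, cohesin and condensin genes were below 0 for 15 of 18 in GF-AOM (median -0.14) and for 9 of 18 in GF-AOMS (0.00). Further replication genes were above 0 for 23 of 32 in GF-AOM (0.10) and 28 of 32 in GF-AOMS (0.20). In GF-AOM against Control 0 of 124 genes were called by edgeR, with 5 under an unadjusted p of 0.05, 1 higher and 4 lower. That is 4.03% of them, below the 15.7% of all genes under that limit. The smallest p after Cdkn2b were those of Rb1, the retinoblastoma gene, at -0.53 log2 (SE 0.20, edgeR adjusted p = 0.245), and the anaphase-promoting complex gene Anapc16, at 0.46 (SE 0.20, edgeR adjusted p = 0.296). In GF-AOMS against Control 13 genes were under that limit, 9 higher and 4 lower. That is 10.5%, again below the share of all genes (16.2%). The smallest p after Cdkn2b were those of Rnaseh2a, which removes RNA from DNA (0.28, SE 0.10, edgeR adjusted p = 0.203), and the G1 kinase gene Cdk6 (-0.41, SE 0.15, edgeR adjusted p = 0.199).

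A single gene of the wider lists was called, Cdkn2b, which encodes the G1 kinase inhibitor p15 (chr4:89306299-89311039). It is 1 of 124 (0.806%), close to the 0.734% of all genes called in GF-AOMS against Control. Its lowest, median and highest values were 24.4, 33.6 and 70.0 CPM in Control, 15.9, 18.4 and 26.2 CPM in GF-AOM and 16.1, 20.3 and 24.4 CPM in GF-AOMS. The GF-AOMS range ended where the Control range began, and GF-AOM overlapped Control. In GF-AOMS against Control the log2 difference was -0.97 (SE 0.22, edgeR adjusted p = 0.0495), and in GF-AOM against Control it was -0.97 (SE 0.22, edgeR adjusted p = 0.0831). The call in GF-AOMS held in 5 of 28 alternatives, whose adjusted p ran from 0.00355 by DESeq2 to 0.976 with the colon position term, where the difference was -0.67. Hoxa13 and Hoxb13 were low in 4 of the 6 Control libraries and not in the other 2, and beyond that term their part in this difference was not tested.

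Markers of other cells were set beside the comparisons, and their part in the members' differences was not tested. In GF-AOMS against GF-AOM, 6 of 8 epithelial and 6 of 8 crypt progenitor markers were above 0 (medians 0.10 and 0.08 log2), and the summed levels overlapped, at 5760 to 8200 and 6610 to 9130 CPM for epithelium and at 223 to 367 and 187 to 392 CPM for crypt progenitors. All 7 macrophage markers and all 6 plasma cell markers were below 0 (medians -0.38 and -0.40), and sums were 403 to 874 against 312 to 770 CPM and 12800 to 23700 against 7550 to 24400 CPM. All 6 endothelial markers (median -0.20) and 6 of 7 goblet cell markers (-0.18) were below 0 as well, with sums that overlapped (97.3 to 207 against 76.1 to 144 CPM, and 11200 to 29600 against 12200 to 29300 CPM). Against Control, mature colonocyte markers, 8 of 9 measured, summed to 3660 to 24100 CPM in Control, 1390 to 3720 CPM in GF-AOM and 2000 to 3460 CPM in GF-AOMS. The GF-AOMS and Control sums did not overlap. Car1, which alone ran from 137 to 19200 CPM over the libraries, had the lowest log2 difference of these markers, at -3.91. Their median was -0.65, with 5 of 8 below 0 and 3 above. By edgeR 2 of the 8 were called lower, against 0.624% of all genes. Control replicates 1 and 2, those with Hoxa13 and Hoxb13, had the lowest Control sums, at 4520 and 3660 CPM. Plasma cell markers were above 0 for 6 of 6 in GF-AOM against Control (median 1.06), with Control sums of 2560 to 14500 CPM. By edgeR 5 of them had an unadjusted p under 0.05, against 15.7% of all genes (5.98% higher), and 0 were called. Smooth muscle sums were 1760 to 5070 CPM in Control, 3740 to 6130 in GF-AOM and 2230 to 12700 in GF-AOMS. Epithelial sums were 8160 to 12300 CPM in Control, so that the lowest Control value lay near the highest of GF-AOM. In GF-AOM against Control 7 of 8 epithelial markers were below 0 (median -0.38). By edgeR 5 of them had an unadjusted p under 0.05, against 9.74% of all genes that were lower at that limit, and 0 were called. Of the crypt progenitor markers 6 of 8 were below 0 there (median -0.29), 1 of them under that limit. Their Control sums were 285 to 458 CPM. T cell markers, with 4 of 7 measured, summed to 26.9 to 49.6, 28.9 to 94.9 and 35.1 to 102 CPM in Control, GF-AOM and GF-AOMS, and B cell markers, with 2 of 6 measured, to 7.13 to 148, 22.6 to 94.3 and 25.1 to 74.4 CPM. Apart from Hoxa13, no marker was at 0 in any library.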

How the data were processed

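RNA of colorectal tissue was measured in 18 libraries. The submitters' processing notes name featureCounts, DESeq2 and the build GRCm39. Neither the aligner nor tool versions were given in the sources used here. Positions in the table match GRCm38 instead (GENCODE M21, 46 of 48 members with both ends within 100 bases), and GRCm38 is used here. The authors deposited whole-number read counts and FPKM values per gene, already limited to expressed genes. Counts of all libraries were fitted with edgeR 4.0.16 in R 4.3.3 (TMM scaling, quasi-likelihood F test, two-sided, no covariate, 15 residual degrees of freedom), with Benjamini-Hochberg adjustment over 10897 genes and calls at 0.05. The script was tested on simulated data. Log2 CPM used a prior count of 2.

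Members and lists were chosen with earlier results of these data known. Genes were named by rule, namely the 3 mitosis and the 3 replication members with the smallest p in a comparison, 6 fixed members, and the 3 smallest p of the wider lists. Alternatives were DESeq2 1.42.0, limma 3.58.1 on log2(FPKM + 1) and log2(FPKM + 0.1), other scalings, a filter (FPKM of at least 5 in 6 libraries, 7273 genes), only the groups compared, a replicate block, a colon position term (mean log2 CPM of Hoxa13 and Hoxb13), and leaving libraries out.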

Additional observations from a re-analysis of the deposited data

Results flagged for a closer look

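Values of 7 of 144 sets of 6 libraries (48 members in 3 groups) stood apart, with a gap to the nearest library that exceeded Dixon's limit at the 95% level. Chance gives about 1 set in 20. Control replicate 5 was high for Mcm4 (46.2 CPM, nearest 30.9), Rpa2 (28.1 CPM, nearest 21.8) and Cdt1 (31.6 CPM, nearest 20.2). GF-AOM replicate 2 was high for Cdc45 (13.6 CPM, nearest 9.79) and for Uhrf1 (45.1 CPM, nearest 32.9). GF-AOM replicate 4 was low for Rfc3 (15.6 CPM, nearest 19.9), and GF-AOMS replicate 2 was high for Rfc4 (34.8 CPM, nearest 22.7). Each is a replication or other S-phase gene, and none is a mitosis gene. With a count near the share given by chance, and many members that move together, no difference between the lists is read from this.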

How the results depend on the processing

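The number of members called was 0 in each comparison under all 28 alternatives, the replicate block included (84 results). Medians of the lists moved by less than the replicate SD. With the replicate block the mitosis medians were -0.27 in GF-AOM against Control, 0.36 in GF-AOMS against GF-AOM and 0.09 in GF-AOMS against Control, and calls over all genes were 2, 0 and 33 in place of 1, 0 and 80. Libraries with the same replicate number were not alike throughout: correlations of same-numbered pairs ran from -0.62 to 0.52, 7 of 18 were over 0.1, and 4 of 18 libraries correlated best with their own number. Correlations were above 0 for all pairs of replicate 4 (0.22 to 0.31) and replicate 5 (0.025 to 0.49). Whether the numbers carry a pairing was not tested. Calls over all genes in GF-AOMS against Control were 375 by DESeq2, 65 with RLE factors, 19 and 20 by limma, 28 with no composition factor, and 0 with only those groups or a colon position term. In GF-AOM against Control DESeq2 gave 284.

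Signs turned for differences near 0. Pcna in GF-AOM against Control was -0.06 by limma with either pseudocount and with no composition factor, and -0.05 with a colon position term. Mki67 in GF-AOMS against Control was -0.10 and -0.13 by limma (pseudocounts 1 and 0.1) and -0.02 with the replicate block, and Top2a there was -0.01 by limma with a pseudocount of 0.1. With a library left out, Mki67 ran from -0.23 to 0.22, Top2a from -0.13 to 0.29, Aurkb from -0.02 to 0.37 and Rrm2 from -0.02 to 0.22 in that comparison, and Pcna from -0.02 to 0.06 in GF-AOM against Control. Mitosis medians with a library left out ran from -0.40 to -0.12 (GF-AOM against Control), 0.15 to 0.50 (GF-AOMS against GF-AOM) and -0.08 to 0.22 (GF-AOMS against Control). The cause of these shifts was not tested.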
